A study of Zea mays with 6 samples.

Results

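Carotenoid metabolism in maize (Zea mays) seedling shoots was followed through 7 genes, 6 listed for synthesis and 1 for cleavage. The libraries came from the wild type and from a line with a knockout of Gβ. Gβ is the β component of the G protein complex that passes receptor signals into the cell. The rule that lists the genes names identifiers and uses no measured value, although it was drawn up with earlier results of these data known, and all 7 of the 44146 listed identifiers were found. They are the phytoene synthases psy1 (Zm00001d036345) and psy2 (Zm00001d012394), the phytoene desaturase vp5 (Zm00001d027936), lycopene epsilon cyclase (lcyE, Zm00001d011210), Zm00001d048469, listed as the beta-carotene hydroxylase crtRB1, the zeaxanthin epoxidase zep1 (Zm00001d003513) and the carotenoid cleavage dioxygenase ccd1 (Zm00001d048373). The names come from the list by which the genes were chosen, because the files carry identifiers without names and the RefSeq table used here holds 0 of these identifiers. For Zm00001d048469 the name is in doubt. Its number lies 96 from that of ccd1, and numbers in this annotation mostly follow gene order along the chromosomes, whereas the RefSeq table (assembly Zm-B73-REFERENCE-NAM-5.0) places crtRB1 and ccd1 on different chromosomes. Zm00001d048469 is therefore called by its identifier below. The RefSeq table has 0 entries named zep1, so no such check could be made for that name.

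Carotenoids are plastid pigments that absorb light and protect the photosynthetic apparatus of leaves from excess light, and they are the precursors of abscisic acid and strigolactones. Phytoene synthase makes the first committed product, phytoene, which desaturases and isomerases turn into lycopene. Cyclases then divide the pathway into a branch towards lutein, which needs lycopene epsilon cyclase, and a branch towards beta-carotene, zeaxanthin and violaxanthin. Cleavage dioxygenases break carotenoids into volatile and signalling apocarotenoids.

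The wild-type group (genotype WT) and the knockout group (genotype GBetaKO, line KO1) each had 3 libraries, labelled as biological replicates, of untreated seedling shoots at the 3-leaf stage without roots. The wild-type background, the kind of mutation and any pooling of plants are not stated in these sources. A single knockout line was sampled, so the loss of Gβ and other differences of that line cannot be told apart. Values are FPKM (fragments per kilobase of gene, scaled between libraries by the authors), and 14757899 to 17665934 reads per library were worked back from them. The targeted gene and tissue markers were not analysed here, because identifiers could not be paired with names. Genotype held the first principal component (69.4% of the variance), and wild-type replicate 3 and knockout replicate 2 stood apart from the others of their groups on the second (20.1%). RNA came from whole shoots, so fewer cells of a type and less RNA per cell cannot be told apart.

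The 3 called genes were psy1 and psy2, which fell in the knockout to about 0.39 and 0.41 of the wild-type mean, and Zm00001d048469, which rose 5.02-fold. lcyE was lower in every knockout library without passing the test, and vp5, zep1 and ccd1 overlapped between genotypes. A gene was called at a Benjamini-Hochberg adjusted p below 0.05 in limma on log2(FPKM + 1), two-sided, over all 23232 genes that reached 1 FPKM in 3 or more libraries. All 7 genes passed that filter, Zm00001d048469 with 4 libraries at 1 FPKM or more, among them all 3 of the knockout. Of its wild-type libraries only replicate 3 reached 1 FPKM, so it passed through the genotype where it is high. With no filter its limma adjusted p was 0.016. The 2 falling genes of 7 stand beside 16.0% of all tested genes called lower, the 1 rising gene beside 15.2% called higher, and the 3 called genes (42.9%) beside 31.2% called in either direction. With so many genes called in the whole table, these shares show nothing particular to the 7 genes. Their median log2 fold change was -0.39, against 0.02 over all tested genes, and 6 of the 7 had a log2 fold change below 0, against 48.8% of all tested genes. Of these 6, only psy1 and psy2 were called, and zep1 lay at -0.02 (limma adjusted p = 0.99).

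**Figure D1:**
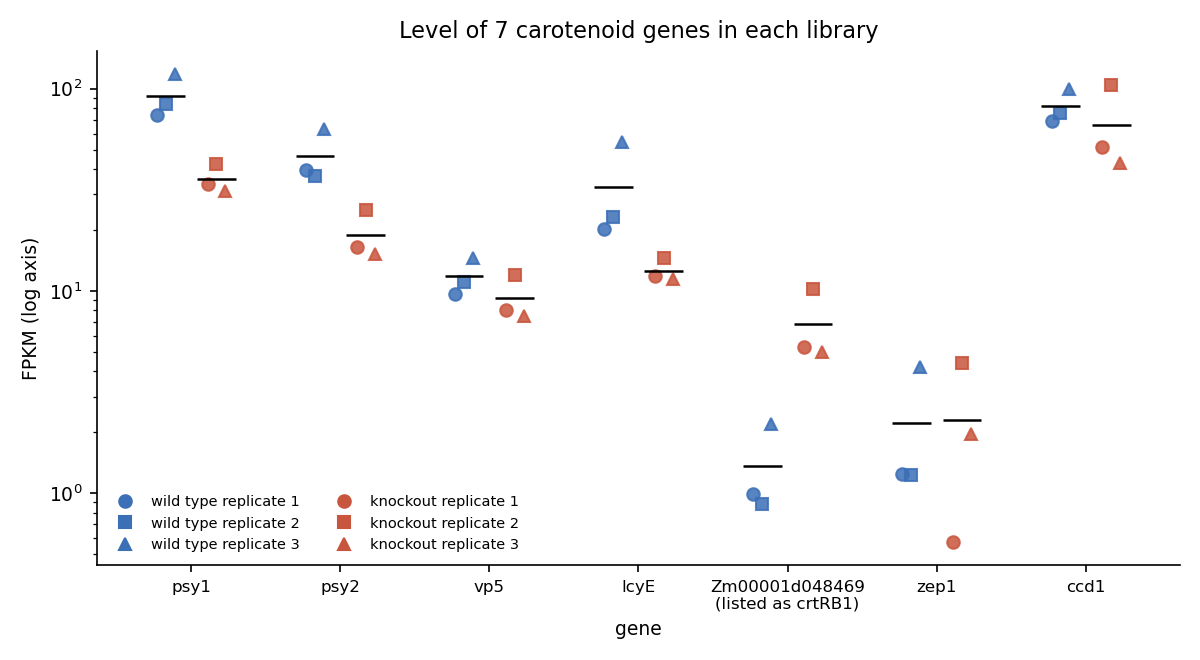
FPKM (log axis) of the 7 genes in each of the 6 libraries, with the mean of each genotype as a bar. The wild-type libraries lie above all knockout libraries for psy1, psy2 and lcyE and below them for Zm00001d048469, while vp5, zep1 and ccd1 overlap.

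Among the 6 genes listed for synthesis, the phytoene synthase genes psy1 and psy2, of the entry step, had the highest mean levels in both genotypes. psy1, the gene of the yellow endosperm locus y1, was at 74.2, 84.2 and 118 FPKM in wild-type replicates 1, 2 and 3 and at 33.8, 42.5 and 31.3 FPKM in knockout replicates 1, 2 and 3. The lowest wild-type library was thus above the highest knockout library. The mean was 92.2 ± 23.1 FPKM in the wild type and 35.9 ± 5.91 FPKM in the knockout (SD, n = 3 each). The log2 fold change, knockout minus wild type, was -1.32 ± 0.24 (SE; 95% interval -1.89 to -0.75, limma adjusted p = 0.008). It was the only one of the 7 genes called at an adjusted p below 0.01, and it was called under every alternative tried (limma adjusted p up to 0.042). Between 1126 and 3215 reads per library lay behind these values, so counting error was small beside the spread between libraries.

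psy2, the second phytoene synthase gene, gave 39.6, 36.9 and 63.2 FPKM in wild-type replicates 1, 2 and 3, against 16.5, 25.1 and 15.2 FPKM in knockout replicates 1, 2 and 3. Here too the genotypes did not overlap. Its mean went from 46.6 ± 14.4 to 18.9 ± 5.41 FPKM (SD, n = 3 each), with a log2 fold change of -1.25 ± 0.28 (95% interval -1.93 to -0.56, limma adjusted p = 0.019) and 428 to 1339 reads per library. The call was lost without knockout replicate 1 (log2 fold change -1.17, limma adjusted p = 0.071) and without knockout replicate 3 (-1.11, limma adjusted p = 0.077). It was kept without knockout replicate 2 (-1.46, limma adjusted p = 0.016).

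The balance between the synthases did not differ between genotypes beyond the spread between libraries. psy2 was at 0.534, 0.438 and 0.534 of the psy1 level in wild-type replicates 1, 2 and 3 and at 0.487, 0.591 and 0.487 in knockout replicates 1, 2 and 3, in FPKM and so per gene length. Knockout replicate 2 held the highest ratio and wild-type replicate 2 the lowest. The log2 ratio of FPKM + 1 differed by 0.08 between the genotype means (exact two-sided permutation p = 0.6, n = 3 each), and the 9 differences between a knockout and a wild-type library ran from -0.11 to 0.43. Among all pairs of the 7 genes, psy1 and psy2 had the most similar profiles over the 6 libraries, with a root-mean-square difference of 0.132 on the log2 scale after each gene was centred on its own mean.

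vp5, whose loss gives white, viviparous kernels, encodes the desaturase that acts on phytoene. Its wild-type level was 9.66, 11.1 and 14.6 FPKM in replicates 1, 2 and 3, and its knockout level 8.07, 12.0 and 7.48 FPKM. The highest knockout library lay above the wild-type replicates 1 and 2, so the genotypes overlapped. The means were 11.8 ± 2.51 and 9.17 ± 2.44 FPKM (SD, n = 3 each), and the log2 fold change was -0.34 ± 0.23 with a 95% interval of -0.90 to 0.23 (limma adjusted p = 0.32). Without wild-type replicate 3 it was -0.18, without knockout replicate 3 it was -0.22, without knockout replicate 2 it was -0.52, and with scaling by total reads it was -0.14, none of them past the test.

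Within each library, vp5 stood higher relative to the synthases in the knockout. The FPKM of vp5 was 0.0848, 0.0916 and 0.0802 of the summed FPKM of psy1 and psy2 in wild-type replicates 1, 2 and 3, and 0.161, 0.177 and 0.161 in knockout replicates 1, 2 and 3. All knockout ratios were above all wild-type ratios, and the spread within a genotype was small. On the log2 scale of FPKM + 1 the difference was 0.98 (exact two-sided permutation p = 0.1). That is the lowest p possible with 3 against 3, and it was 0.125 after Benjamini-Hochberg adjustment over the 5 ratios tested. The difference was 0.96 with no FPKM added, where the ratio does not depend on the scaling factor of a library. With 1 FPKM added it depends on that factor slightly. After quantile normalization the difference was 0.77.

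lcyE, which directs lycopene towards lutein, was at 20.3, 23.2 and 54.2 FPKM in wild-type replicates 1, 2 and 3 and at 11.9, 14.5 and 11.4 FPKM in knockout replicates 1, 2 and 3. Every knockout library was below every wild-type library, and wild-type replicate 3 was far above the other wild-type libraries. The means were 32.6 ± 18.8 and 12.6 ± 1.69 FPKM (SD, n = 3 each), with a log2 fold change of -1.17 ± 0.37 (95% interval -2.07 to -0.28) that missed the threshold (limma adjusted p = 0.056). Without wild-type replicate 3 the log2 fold change was smaller, at -0.75, and the limma adjusted p was 0.017. That library is distant in these same data, and leaving it out narrows the spread. This call is therefore not independent evidence of a change. Of all tested genes, 8614 were then called, against 7238 with every library. voom on the reads worked back gave an adjusted p of 0.044. The limma adjusted p was 0.14 without knockout replicate 1 and 0.16 without knockout replicate 3, where 4650 and 4212 of all tested genes were called. Relative to psy1, lcyE was at 0.274, 0.275 and 0.458 in wild-type replicates 1, 2 and 3 and between 0.342 and 0.364 in the knockout, so its ratio to psy1 in wild-type replicate 3 exceeded that in the 5 other libraries. Of the 7 genes, 4 had genotypes that did not overlap (57.1%), against 49.4% of all tested genes.

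**Figure D2:**
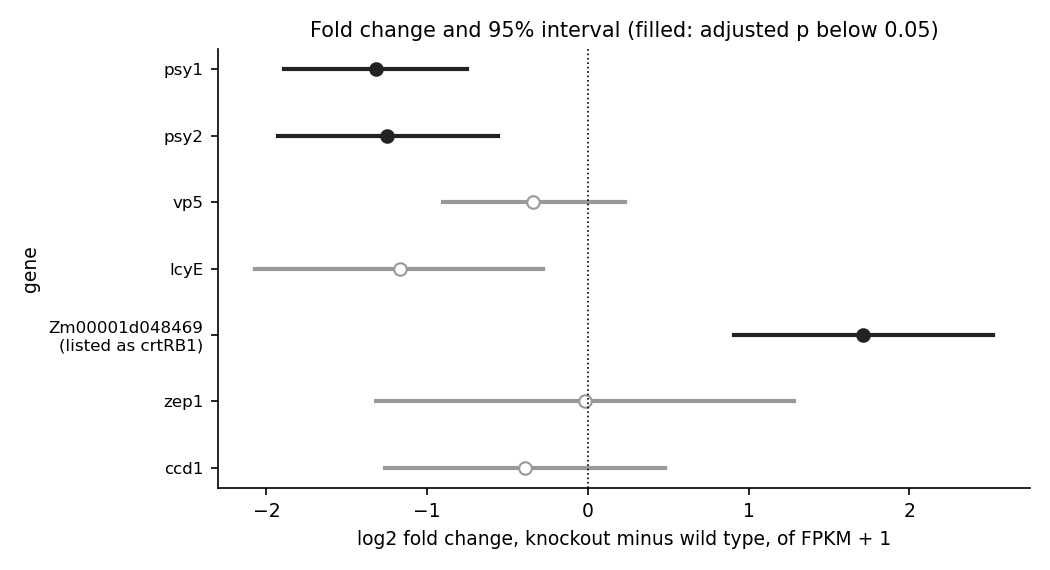
Log2 fold change of FPKM + 1, knockout minus wild type, for each gene with its 95% interval from limma, filled where the adjusted p is below 0.05. psy1 and psy2 lie at -1.32 and -1.25, Zm00001d048469 at 1.71, and the interval of zep1 runs from -1.32 to 1.28.

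The one gene that rose, Zm00001d048469, was among the weakly expressed genes of the wild type. Its levels were 0.995, 0.879 and 2.20 FPKM in wild-type replicates 1, 2 and 3 and 5.26, 10.2 and 5.01 FPKM in knockout replicates 1, 2 and 3. The lowest knockout library had more than the highest wild-type library. The mean went from 1.36 ± 0.731 to 6.82 ± 2.92 FPKM (SD, n = 3 each), and the log2 fold change was 1.71 ± 0.33 (95% interval 0.91 to 2.52, limma adjusted p = 0.011). Because 1 FPKM is added before the logarithm, this understates the change of a weak gene, and the log2 fold change was 2.28 with 0.1 FPKM added and 0.87 with 5 FPKM added. Its level moved from percentile 9.6 to percentile 40.2 of the tested genes. The depth was 25 to 55 reads in the wild-type libraries and 166 to 293 reads in the knockout libraries. With exact Poisson 95% intervals, which cover counting error only, the wild-type replicate 3 value spanned 1.66 to 2.86 FPKM and the knockout replicate 3 value 4.27 to 5.83 FPKM.

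crtRB1 itself hydroxylates beta-carotene on the way to zeaxanthin, a step on the beta branch that lcyE leads away from. The FPKM of Zm00001d048469 relative to lcyE was 0.0490, 0.0379 and 0.0406 in wild-type replicates 1, 2 and 3 and 0.441, 0.701 and 0.441 in knockout replicates 1, 2 and 3. The ratio was higher in every knockout library than in any wild-type library, by 2.88 on the log2 scale of FPKM + 1 (exact two-sided permutation p = 0.1, the smallest possible, 0.125 adjusted over the 5 ratios). The size depended on the pseudocount, from 1.86 with 5 FPKM added to 3.61 with none. Both parts of this ratio were described above, so it adds no further evidence for either, and whether it compares the pathway's branches depends on the doubtful name.

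zep1, the epoxidase that turns zeaxanthin into violaxanthin, differed more between libraries of a genotype than between genotypes. It was at 1.25, 1.23 and 4.20 FPKM in wild-type replicates 1, 2 and 3 and at 0.576, 4.39 and 1.97 FPKM in knockout replicates 1, 2 and 3. The highest libraries of the genotypes, wild-type replicate 3 and knockout replicate 2, had nearly the same level. The means were 2.23 ± 1.71 and 2.31 ± 1.93 FPKM (SD, n = 3 each), and the log2 fold change was -0.02 ± 0.54 (95% interval -1.32 to 1.28, limma adjusted p = 0.99), an interval that leaves room for a change of more than 2-fold either way. The direction of so small a value turned with the scaling and with the libraries used. Only 9 to 54 reads per library lay behind these values, and the exact Poisson 95% interval was 0.263 to 1.09 FPKM in knockout replicate 1 and 3.29 to 5.72 FPKM in knockout replicate 2. The difference between these replicates was thus larger than counting error. The gene length worked back for zep1 was 793 bases, and length and reads would both be larger by a common factor if the reads of all 6 libraries shared it.

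Relative to Zm00001d048469, zep1 was at 1.26, 1.40 and 1.91 in wild-type replicates 1, 2 and 3 and at 0.109, 0.430 and 0.394 in knockout replicates 1, 2 and 3. All knockout ratios were below all wild-type ratios, with a difference of -1.73 on the log2 scale of FPKM + 1 (exact two-sided permutation p = 0.1, adjusted 0.125 over the 5 ratios), -0.86 with 5 FPKM added and -2.50 with none.

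ccd1, a dioxygenase that cleaves carotenoids and apocarotenoids outside the plastid, had a wild-type level second to that of psy1 among the 7 genes, with overlapping ranges. Its levels were 69.4, 75.8 and 99.8 FPKM in wild-type replicates 1, 2 and 3 and 51.5, 104 and 43.0 FPKM in knockout replicates 1, 2 and 3. Knockout replicate 2 held the highest value of all, and knockout replicates 1 and 3 the lowest. With means of 81.7 ± 16.0 and 66.2 ± 33.0 FPKM (SD, n = 3 each) the log2 fold change was -0.39 ± 0.36 (95% interval -1.26 to 0.48, limma adjusted p = 0.45). The size of this value depended on single libraries. It was -0.77 without knockout replicate 2 (limma adjusted p = 0.060), -0.14 without knockout replicate 3 (0.83), -0.26 without knockout replicate 1 (0.71) and -0.24 without wild-type replicate 3 (0.66). It passed the test without wild-type replicate 3 and knockout replicate 2 together (-0.61, limma adjusted p = 0.013). Under that setting 11952 of all 23232 tested genes were called. The log2 fold change of ccd1 was -0.13 after quantile normalization and -0.18 with scaling by total reads.

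Relative to the synthases, ccd1 was higher in the knockout. The FPKM of ccd1 was 0.610, 0.626 and 0.550 of that of psy1 and psy2 together in wild-type replicates 1, 2 and 3 and 1.02, 1.54 and 0.925 of it in knockout replicates 1, 2 and 3. The genotypes did not overlap, and knockout replicate 2 was the highest. The difference in log2 ratio of FPKM + 1 was 0.92 (exact two-sided permutation p = 0.1, adjusted 0.125 over the 5 ratios) and 0.71 without knockout replicate 2. Of the 5 ratios tested, 4 separated the genotypes, and psy2 to psy1 did not. Among single tested genes, 49.4% separated the genotypes, and no such share was computed for pairs of genes. Each of those 4 ratios contains called genes, psy1 with psy2 or Zm00001d048469, so none is evidence independent of those calls.

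**Figure D3:**
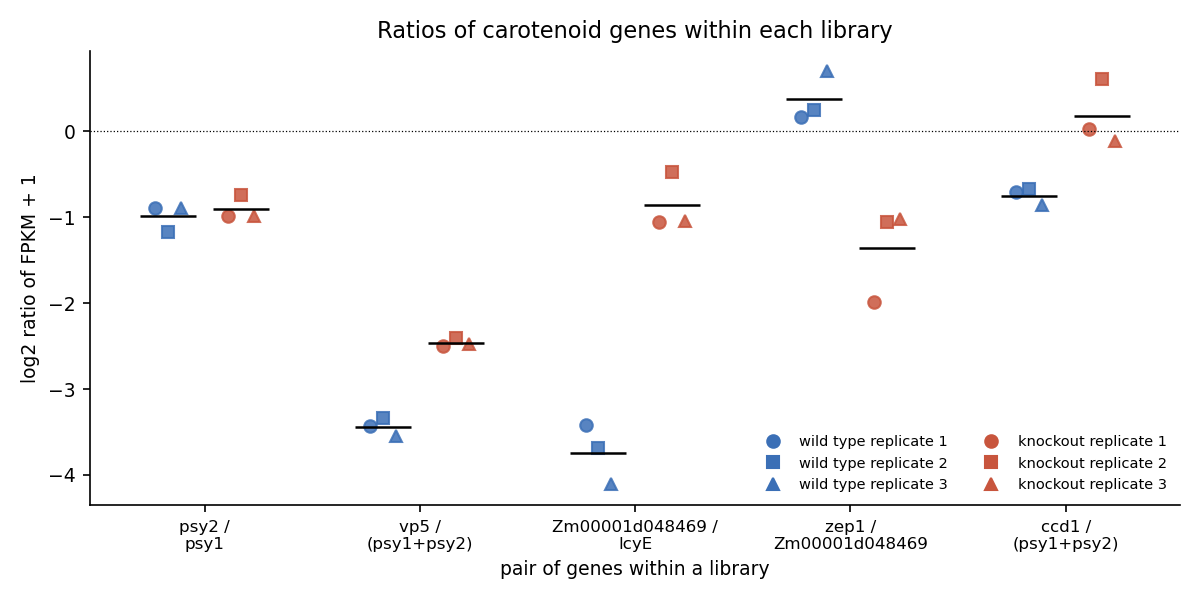
Log2 ratio of FPKM + 1 for 5 pairs of genes within each library, with the mean of each genotype as a bar. The psy2 to psy1 ratio overlaps between genotypes, whereas vp5 and ccd1 relative to the synthases are higher in all 3 knockout libraries by 0.98 and 0.92 on average.

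The order of the genes by level changed between the genotypes, with levels compared in FPKM and hence per gene length as worked back (793 to 5630 bases). In the wild type it was psy1, ccd1, psy2, lcyE, vp5, zep1 and Zm00001d048469. Ranges over libraries overlapped between psy1 and ccd1, between psy2 and lcyE, and between zep1 and Zm00001d048469. In the knockout it was ccd1, psy1, psy2, lcyE, vp5, Zm00001d048469 and zep1, with overlapping ranges for lcyE with vp5 and for vp5 with Zm00001d048469. ccd1 lay at percentile 93.8 of the tested genes in the wild type and 93.6 in the knockout, while psy1 went from 94.7 to 86.6, psy2 from 88.2 to 73.1 and lcyE from 82.5 to 61.0.

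Summed over the 6 genes listed for synthesis, the level was 146, 158 and 257 FPKM in wild-type replicates 1, 2 and 3 and 76.1, 109 and 72.3 FPKM in knockout replicates 1, 2 and 3. The sum includes Zm00001d048469, whose name is in doubt and which gave at most 10.2 FPKM (knockout replicate 2). The knockout libraries were all below the wild-type libraries, with a difference in log2 level of -1.10 (exact two-sided permutation p = 0.1, the smallest possible). psy1 and psy2 made up 70.7% to 77.9% of this sum in the wild type and 62.2% to 66.0% in the knockout, so the sum mainly follows the synthases.

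All 7 genes shared a pattern within the genotypes. Each had its highest wild-type level in replicate 3 and its highest knockout level in replicate 2, as did 28.4% of all tested genes. The same libraries were the distant ones on the second principal component. The level in wild-type replicate 3 relative to the mean of the other wild-type libraries was 1.37 for ccd1, 1.40 for vp5, 1.49 for psy1, 1.65 for psy2, 2.35 for Zm00001d048469, 2.49 for lcyE and 3.38 for zep1, with a median of 1.03 over all tested genes. Knockout replicate 2 relative to the other knockout libraries gave 1.25 for lcyE, 1.31 for psy1, 1.54 for vp5, 1.59 for psy2, 1.98 for Zm00001d048469, 2.20 for ccd1 and 3.44 for zep1, with a median of 1.02. zep1 departed most in both libraries, whereas lcyE departed strongly in wild-type replicate 3 and least in knockout replicate 2. After scaling by the total of the reads worked back, in which the medians over all genes were 0.84 and 0.90, all 7 genes were again highest in these libraries, as were 15.8% of all tested genes. The part of these libraries in the differences between genotypes is given by the values without them. The log2 fold changes were then -1.26 for psy1, -1.22 for psy2, 1.66 for Zm00001d048469, -0.85 for lcyE and -0.61 for ccd1. These 5 of the 7 genes were called, beside 11952 of all 23232 tested genes. The libraries left out were picked as distant in these same data, and leaving them out narrows the spread within genotypes. The calls of lcyE and ccd1 under this setting are therefore not independent evidence of a change.

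**Figure D4:**
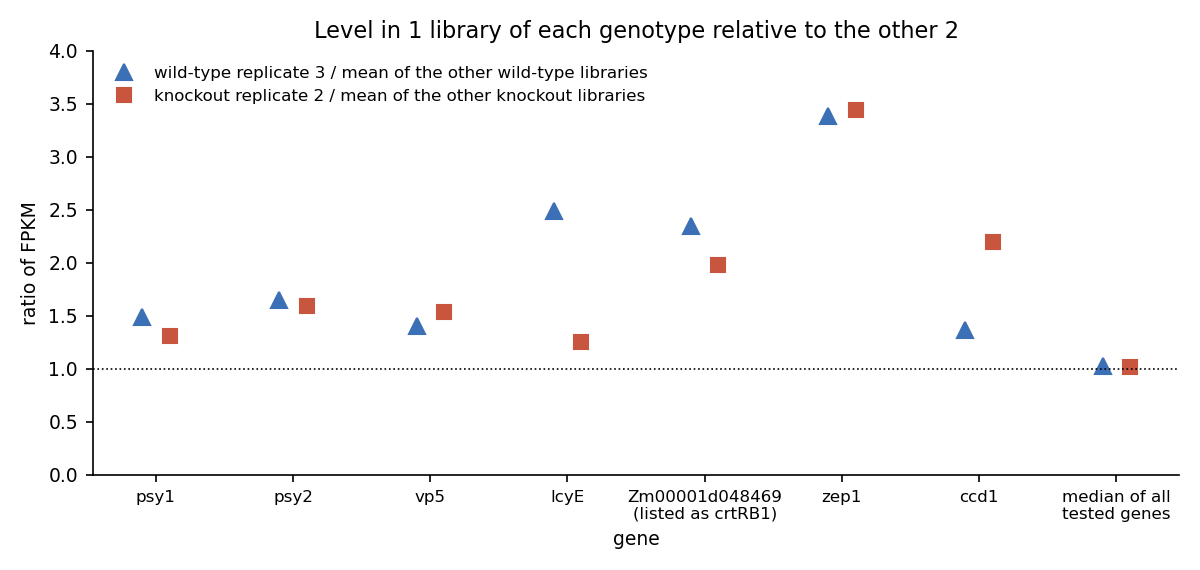
Level in wild-type replicate 3 and in knockout replicate 2 relative to the mean of the other libraries of the same genotype, for the 7 genes and as the median of all tested genes. All 7 genes lie above 1 in both libraries, from 1.25 for lcyE in knockout replicate 2 to 3.44 for zep1.

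Genes with the most similar profile were sought among 11399 other tested genes with a mean of at least 10 FPKM, by the smallest root-mean-square difference over the 6 libraries of log2(FPKM + 1) centred on each gene's mean. Zm00001d012922 was closest to psy1 (0.0317), at 123 ± 28.7 FPKM in the wild type and 49.5 ± 6.94 FPKM in the knockout (SD, n = 3 each). Closest to psy2 was Zm00001d034828 (0.0548), which changed by -1.34 ± 0.30 on the log2 scale (limma adjusted p = 0.018). For Zm00001d048469 it was Zm00001d048329 (0.104), which changed by 1.68 ± 0.37 (limma adjusted p = 0.018), and for zep1 it was Zm00001d041191 (0.163), with a log2 difference of 0.10 ± 0.50 (limma adjusted p = 0.90). These identifiers carry no names here, and with so many candidates over 6 libraries a close match is a description only.

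**Figure D5:**
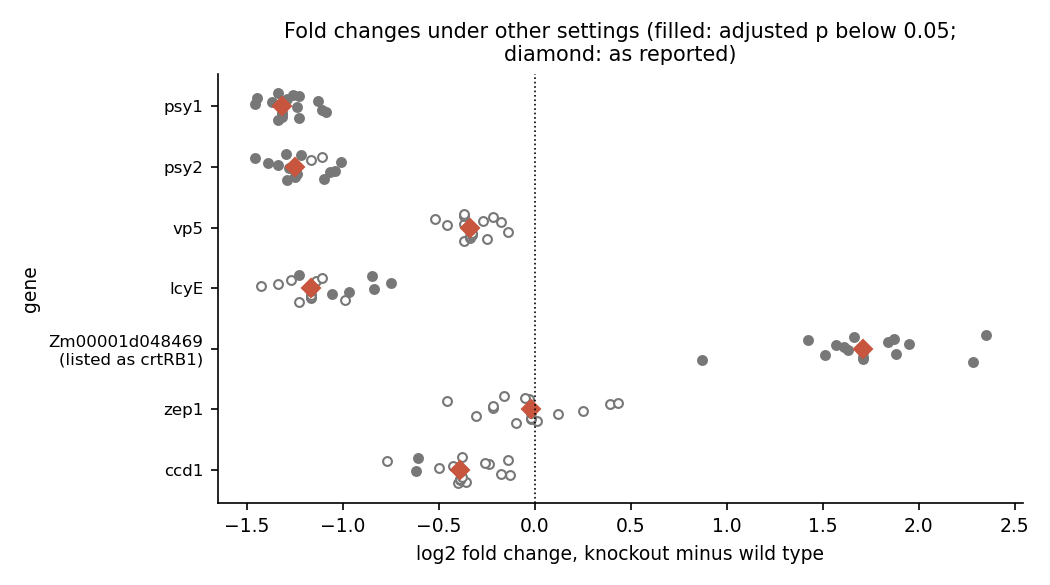
Log2 fold change of each gene as reported (diamond) and under the other settings (circles, filled where the limma adjusted p is below 0.05). psy1 stays between -1.46 and -1.09 and Zm00001d048469 between 0.87 and 2.35, while zep1 lies on both sides of 0, from -0.46 to 0.43.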

How the data were processed

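The authors deposited FPKM values per gene for each library. Per the submitters' processing notes, TopHat2, Cufflinks and Cuffdiff were used with the genome build B73 RefGen_v4. Versions, annotation, filters and strand setting are not stated there, so reads shared with near-identical or overlapping genes cannot be separated. The files have no header, and the unit was taken from these tools and the values.

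The deposited FPKM were whole multiples of the value of 1 read within 0.002 reads in all 30066 genes above 0 in at least 2 libraries, which gave gene lengths and reads (14757899 to 17665934 per library). These are a depth and an alternative only.

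Groups and replicate numbers came from the titles. Knockout was compared with wild type by limma 3.58.1 in R 4.3.3 on log2(FPKM + 1), with trend and robust settings. The method was also run on simulated counts without outlying libraries, so that run does not show how such libraries affect the calls. Single values were compared by exact permutation tests (scipy 1.17.1), which cannot go below 0.1 with 3 against 3. The labels do not say whether replicates came from separate plants, so p-values measure the spread between these libraries. Members, lists and tests were chosen with earlier results of these data known. All 7 genes are named, and similar genes were limited to 2 higher and 2 lower identifiers, taken in pathway order. Other genes of the pathway were not analysed here, because the reference holds none of the files' identifiers. Alternatives covered the pseudocount, filter, scaling, variance model, library weights, replicate block, libraries left out, threshold and voom on reads.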

Additional observations from a re-analysis of the deposited data

How the results depend on the processing

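psy1 kept its call under every alternative, and Zm00001d048469, whose name is in doubt, under every one that tested it except the threshold of 0.01. Zm00001d048469 was left out at a mean of at least 5 FPKM, which left 0 of the listed genes and 2105 of all genes called higher. Of the 7 listed genes, 3 were called as reported and 6 (5 lower) with library weights. Without wild-type replicate 3 and knockout replicate 2 together 5 (4 lower) were called, and at an adjusted p below 0.01 it was 1 (1 lower, 0 higher). With any single library left out, 2 to 4 were called, 1 to 3 of them lower and 1 (Zm00001d048469) higher. Genes called in all were 7238 (3531 higher, 3707 lower) as reported, 14976 (7501 and 7475) with weights, 11952 (5894 and 6058) without those libraries, 3495 (1656 and 1839) at the stricter threshold, and 4212 to 8614 (2021 to 4197 and 2191 to 4417) with each library left out. The cause was not tested, except that fewer genes were tested with the stricter filter.

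With a replicate block, 4579 genes (2171 higher, 2408 lower) and 1 lower carotenoid gene were called, with psy2 at a limma adjusted p of 0.063. Deviations of same-numbered libraries correlated at 0.15, -0.37 and -0.20, and 0 of 6 libraries correlated best with their own number. The values thus gave no sign of pairing by number. With so few libraries, some of them outlying, this cannot show that the numbers mark no shared batch.

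Scaling by total reads moved the median of all tested genes to 0.21 (log2) and the share of calls that were higher from 48.8% to 61.7%. Relative to that median, psy1 was at -1.32, psy2 at -1.25, lcyE at -1.18, vp5 at -0.35, ccd1 at -0.38, zep1 at -0.09 and Zm00001d048469 at 1.67. lcyE passed the threshold under 6 of 18 alternatives, ccd1 under 2, vp5 under 1 and zep1 under none of 17 (limma adjusted p from 0.42). zep1 turned positive at a pseudocount of 5 (0.01), with total reads (0.12), with weights (0.25), without wild-type replicate 3 (0.39) and without knockout replicate 1 (0.43), and ran from -0.46 to 0.43 with each library left out. The psy2 to psy1 difference ran from -0.02 to 0.12 with each library left out, and was below 0 without wild-type replicate 2 (-0.02) or knockout replicate 2 (-0.01). The other ratios and the summed level kept their direction under the alternatives run for each. Ratios without a pseudocount, and vp5 and ccd1 relative to psy1 alone, were chosen after seeing the data. The ratio of lcyE to psy1 was not among the 5 ratios tested and is a description only. Depth limits zep1 and the wild-type values of Zm00001d048469.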
